A study of Arabidopsis thaliana with 60 samples.

Results

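The 200 genes described here varied most between sister plants, that is, between plants of the same cross. They were chosen by the spread itself: 16252 of the 21450 genes listed reached 50 normalized counts on average, the group mean was subtracted from each plant's regularized log (rlog, a log2 scale that shrinks poorly counted genes), and the 200 genes with the largest pooled within-group SD were kept. The pooled SD came from 15 plants with 12 degrees of freedom. Poly(A) RNA was sequenced from the aerial tissue of Arabidopsis thaliana plants 18 days after sowing. Triparental triploids (TT) came from ein3-1 mothers pollinated by a pair of pollen donors. Biparental triploids (BT) came from ein3-1 mothers crossed to a tetraploid donor, and biparental diploids (BD) from ein3-1 mothers crossed to a diploid donor. All 3 groups share the ein3-1 mother, which carries a mutation in the ethylene response factor EIN3. The BT and BD donors carried pRPS5a::mGAL4-VP16 and pUAS::BAR-YFP, in which the RPS5a promoter, active in dividing cells, drives a GAL4 activator of a herbicide resistance and YFP gene. Seedlings of every group were selected with glufosinate, and ploidy and YFP were checked before harvest. Each group held 5 plants, and each plant's 4 technical replicates were combined in the deposited tables, so that 60 samples gave 15 columns.

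Leaves answer biotrophic pathogens through salicylic acid, which acts with the receptor NPR1 to switch on pathogenesis-related (PR) proteins, among them enzymes that attack microbial walls. Camalexin, an antimicrobial compound, and N-hydroxypipecolic acid, a mobile signal, are often made alongside. Touch, wounding and cold switch on another set within minutes, including TCH genes, calmodulin-like proteins and ERF transcription factors, and many of these transcripts also follow the circadian clock. Plants of one genotype in one chamber can differ in both responses.

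Gene counts were deep in every plant. The TT plants had a median of 25343983 reads on genes, the BT plants 26803085 and the BD plants 25240529, with BD replicate 5 lowest at 19534646 and BD replicate 4 highest at 30756482. Green leaf tissue was plain from the antenna and Rubisco list, of which 24 of 24 genes were listed and summed to between 75349 and 148077 TPM, that is, transcripts per gene length scaled to a common total. Root markers were listed for 2 of 7 genes, at 13.2 to 43.8 TPM in sum, and anther and pollen markers for 4 of 15, at 3.19 to 5.30 TPM. None of the 6 seed markers was among the listed genes. EIN3 itself had 1225 to 1939 normalized counts over the 15 plants, all of which had an ein3-1 mother. It had 1512 to 1851 in TT, 1523 to 1939 in BT and 1225 to 1592 in BD plants, so the BD plants lay lower with some overlap. In these bulk tissues, fewer cells of a type and less RNA per cell cannot be told apart.

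BT replicate 5 and BD replicate 4 stood apart from their sisters. Of the squared deviations summed over the 200 genes, 24.8% lay in BD replicate 4 and 17.45% in BT replicate 5. No other plant held more than the 9.43% of BT replicate 4. Over the other 16052 genes above the count minimum these plants also held the 2 largest shares, 17.1% in BT replicate 5 and 12.9% in BD replicate 4. The 200 genes took 3.53% of all normalized counts in BT replicate 5 and 1.90% in BD replicate 4, against 0.243% to 1.07% in the other plants. Antenna and Rubisco genes were lowest in BT replicate 5 at 75349 TPM, and BD replicate 4 was next at 100799 TPM. Several plants also carried an offset along a chromosome. Among genes outside the 200, log2(normalized count + 1) was compared with each gene's median over all plants. This is another scale and baseline than the rlog deviations from the group mean used for the blocks. The median difference was 0.34 on chromosome 4 in BT replicate 2 and 0.30 on chromosome 5 in BT replicate 5. It was 0.49 on the distal part of chromosome 1 (from AT1G70250) in BD replicate 4. On that distal part it was also 0.33 in BT replicate 3 and 0.23 in BT replicate 5, while every other plant and chromosome lay between −0.10 and 0.04.

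The pooled SD of the 200 genes had a median of 0.76 and ran from 0.63 to 2.27 on the rlog scale, against a median of 0.14 over the other genes above the minimum. These spreads are descriptions, because the genes were selected on them. The last genes inside were AT2G20670 at 0.633 and the chitinase gene AT2G43620 at 0.632. The next genes outside were ABCG40 (AT1G15520), a transporter of abscisic acid, at 0.631, and CSD2 (AT2G28190), a copper/zinc superoxide dismutase, at 0.631. The median SD of the 200 genes within single groups was 0.42 in TT plants, 0.85 in BT plants and 0.87 in BD plants. Without BT replicate 5 the BT value was 0.63, and without BD replicate 4 the BD value was 0.62. Over the other 16052 genes above the minimum the median was 0.11 in TT, 0.15 in BT and 0.14 in BD plants. The 200 genes were chosen on a spread pooled over the groups, so their values within single groups depend on that choice. The plant farthest from its group mean lay above it for 171 of the 200 genes. For 134 genes that plant was BT replicate 5 or BD replicate 4 (80 and 54 genes), for 22 genes it was TT replicate 4, and for 11 genes BD replicate 2. Ranking each group alone gave lists that overlapped in part. The 200 most variable genes of TT plants shared 34 (17%) with those of BT plants and 74 (37%) with those of BD plants. Those of BT and BD plants shared 112 (56%). For scale, 200 genes are 1.23% of the 16252, so each of these overlaps was above that share. The lists of all 3 groups had 27 genes in common, among them NIT2, PR1, CHI, TAT3, SAG13, LTP4, PHI-1, DREB26 and COR27.

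**Figure D1:**
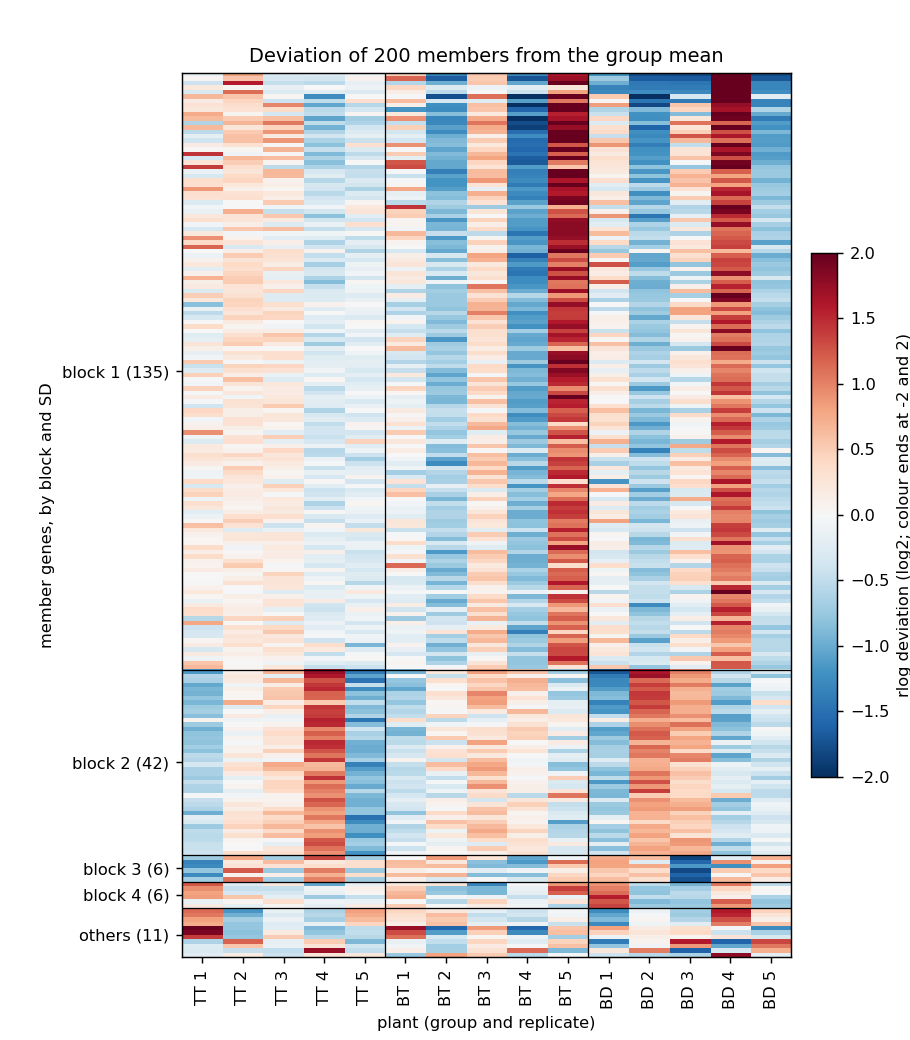
Heat map of the rlog deviation (log2 units, colour ending at −2 and 2) of the 200 genes (rows, ordered by block and SD) in each of the 15 plants (columns, TT, BT and BD, deviation taken from the plant's own group mean). The 135 genes of block 1 all lie above the group mean in BT replicate 5 and BD replicate 4, and the 42 genes of block 2 in TT replicate 4, BD replicate 2 and BD replicate 3.

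Clustering the 200 genes by the correlation of their deviations (average linkage, cut at a distance 1 − r of 0.5) gave blocks of 135, 42, 6 and 6 genes, and 11 genes in smaller sets. Correlations between genes in these data are over 15 plants that share libraries and depth, and they are given without a test. Of the 135 genes of block 1, 13 were on the salicylic acid defence list, and its largest SDs were those of OSM34, KTI1 and NIT2. Of the 42 genes of block 2, 9 were on the touch list, and its largest SDs were those of PHI-1, JAZ7 and DREB26. Block 3 held 6 genes of chromosome 5, of which 5 were undetected in some plants, and block 4 held the cold and clock regulators COR27 and AT4G33980 (COR28).

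The bases upstream of the genes were searched for motif letters on both strands, within 300 bases before the annotated gene start in the RefSeq TAIR10.1 assembly. All 200 genes were matched there and were protein coding. The letters TGACG, the as-1 type site that TGA factors bind in promoters that answer salicylic acid, occurred before 51 of the 135 block 1 genes (37.8%), before 9 of the 42 block 2 genes (21.4%) and before 22.2% of 16207 genes above the count minimum. The letters TTGACC, a form of the W box bound by WRKY factors, occurred before 11 of 42 block 2 genes (26.2%), before 18.5% of block 1 genes and before 13.8% of all. The letters GAANNTTC, the core of a heat shock element, occurred before 28.6% of block 2, 23.7% of block 1 and 11.4% of all genes. The letters AAATATCT, the evening element of clock-controlled promoters, occurred before 2 of 6 block 4 genes and 5.997% of all genes. They also occurred before 11.9% of block 2 and 9.63% of block 1 genes. Further motifs were searched and are not listed, some of them near the share of all genes. W box and TGA site share the letters TGAC, and a match describes letters only. The stretches shown are those around the match nearest the gene start in the carriers with the largest SD, with every match in capitals, read 5′ to 3′ on the strand of the gene.
The block 1 stretches, in which a TGA site on the other strand reads CGTCA, are KTI1 at chr1:27548343-27548442 on the minus strand, DIN2 at chr3:22216292-22216391 on the plus strand, and AT4G16260 at chr4:9201844-9201943 on the minus strand.
KTI1: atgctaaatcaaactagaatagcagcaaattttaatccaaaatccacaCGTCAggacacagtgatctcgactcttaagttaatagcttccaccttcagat
DIN2: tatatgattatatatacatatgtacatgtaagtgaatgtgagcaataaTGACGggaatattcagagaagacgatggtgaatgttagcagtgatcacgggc
AT4G16260: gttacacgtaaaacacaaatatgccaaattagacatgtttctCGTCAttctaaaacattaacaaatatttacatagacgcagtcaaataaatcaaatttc
The block 2 stretches, in which a W box on the other strand reads GGTCAA, are AT1G50040 at chr1:18541945-18542044 on the plus strand, CYP707A3 at chr5:18371128-18371227 on the minus strand, and AT2G27080 at chr2:11563833-11563932 on the plus strand.
AT1G50040: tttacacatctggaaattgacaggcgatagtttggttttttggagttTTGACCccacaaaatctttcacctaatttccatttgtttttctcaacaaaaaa
CYP707A3: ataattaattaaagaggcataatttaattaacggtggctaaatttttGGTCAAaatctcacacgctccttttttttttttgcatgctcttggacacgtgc
AT2G27080: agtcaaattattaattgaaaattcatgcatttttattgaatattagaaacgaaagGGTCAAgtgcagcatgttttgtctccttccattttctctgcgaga

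All 135 genes of block 1 lay above their group mean in BT replicate 5 and also in BD replicate 4, and none did in BT replicate 4. A single gene lay above it in each of BT replicate 2, BD replicate 2 and BD replicate 5. The mean deviation of the block was 1.396 in BT replicate 5 and 1.47 in BD replicate 4, against −1.02 in BT replicate 4, −0.83 in BD replicate 2 and −0.75 in BT replicate 2. The TT plants stayed between −0.33 and 0.26. BT replicate 5 was the farthest plant for 77 genes of the block and BD replicate 4 for 49. The mean correlation between its genes was 0.81, and without both plants it was 0.65. Among the 104 genes with more than 3 reads in every plant, the highest plant exceeded the lowest by a median of 27.7-fold (range 10.5 to 1607). Of all genes above the count minimum, 1448 followed the block mean with r over 0.8, and 656 ran against it with r under −0.8. The 1448 were counted with the block's own genes left in, which enter that mean. Those running against it included ACS4, an ethylene synthesis enzyme, BAS1, which inactivates brassinosteroids, and TCL1, a repressor of trichome formation. Block 1 genes inside and outside the chromosome parts with an offset were also set side by side. In BD replicate 4 the 11 block 1 genes on distal chromosome 1 had a median deviation of 1.401 and the other 124 genes 1.21. In BT replicate 5 the 40 on chromosome 5 or distal chromosome 1 had 1.49 and the other 95 genes 1.32. The part of the offsets in block 1 was not tested.

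**Figure D2:**
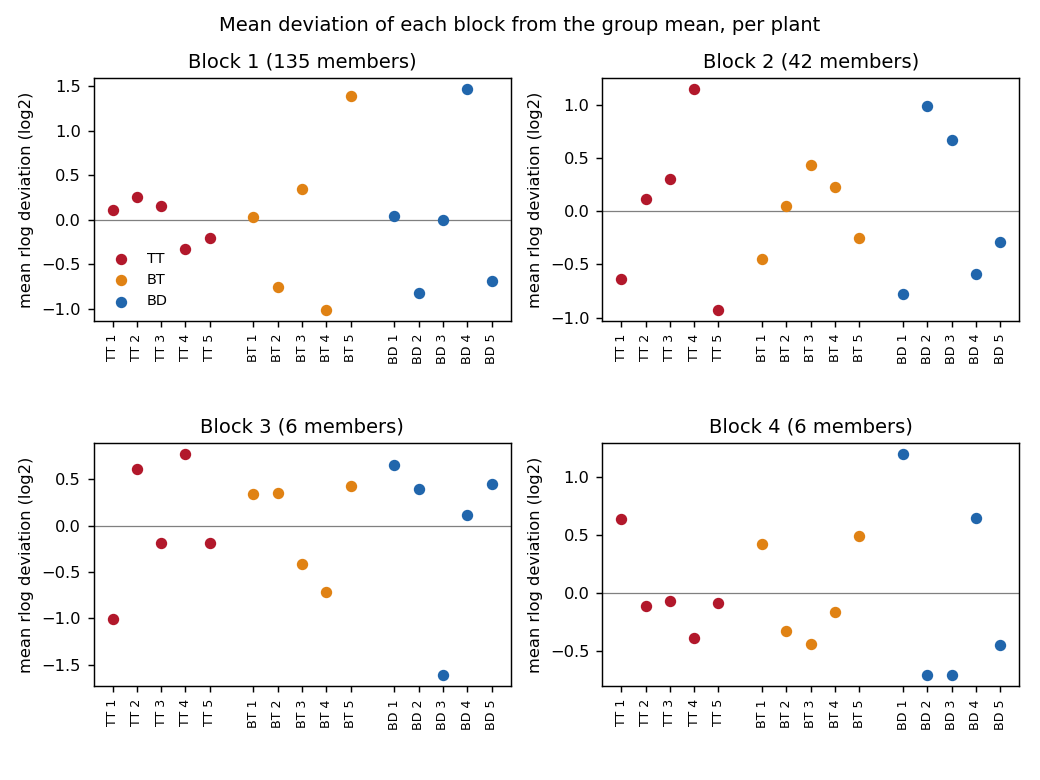
Mean rlog deviation (log2 units) of the 4 largest blocks in each plant, 1 point per plant, with TT, BT and BD plants left to right. Block 1 peaks at 1.396 in BT replicate 5 and 1.47 in BD replicate 4, block 2 at 1.14 in TT replicate 4, block 3 is lowest at −1.62 in BD replicate 3 and block 4 highest at 1.201 in BD replicate 1.

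The largest SD of all belonged to OSM34 (AT4G11650, chromosome 4), which encodes osmotin, an antifungal relative of PR5. Its normalized counts were 6.22, 47.6, 0.960, 1.07 and 7.65 in TT replicates 1 to 5, 110, 1.91, 122, 2.93 and 329 in BT replicates, and 28.7, 2.54, 3.29, 5343 and 2.50 in BD replicates. BD replicate 4 was far above every other plant, and BT replicate 5 was the next plant. KTI1 (AT1G73260), a Kunitz trypsin inhibitor, had 42.7, 91.0, 17.3, 14.9 and 44.0 counts in TT, 572, 9.53, 309, 5.85 and 928 in BT, and 115, 22.9, 24.1, 9406 and 19.98 in BD plants. NIT2 (AT3G44300), a nitrilase, had 4.44, 142, 1.92, 0 and 11.5 counts in TT, 15.01, 2.86, 84.9, 0.976 and 344 in BT, and 19.7, 1.27, 2.19, 1905 and 4.996 in BD plants. In all 3 genes BD replicate 4 was the highest plant of the study and BT replicate 5 the highest of its group. Without BD replicate 4 the pooled SD was 0.84 in place of 2.27 for OSM34, 1.02 in place of 2.11 for KTI1 and 0.97 in place of 1.90 for NIT2.

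A pair of genes of sugar export and dark starvation were higher in BD replicate 4 than in any other plant by a wide margin. SAG29 (AT5G13170), the senescence-associated sugar transporter SWEET15, had 782 counts in BD replicate 4, while the other BD plants had 1.27 to 4.92, the BT plants 0 to 18.0 and the TT plants 2.88 to 12.4. DIN2 (AT3G60140), a beta-glucosidase induced by darkness, had 727 counts in BD replicate 4, against 0 to 1.64 in its 4 sisters. It was also raised in TT replicate 2 at 54.1, where the other TT plants had at most 1.07, and the BT plants had 18.0, 0, 13.1, 1.95 and 47.5. SRG1 (AT1G17020), the other senescence gene of the set, had 731 counts in BD replicate 4 and at most 185 elsewhere. Without this plant the pooled SD was 0.20 for SAG29, 0.49 for DIN2 and 0.47 for SRG1, below that of the last gene kept.

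The classical markers of salicylic acid defence varied in every group and were highest in BT replicate 5. PR1 (AT2G14610) had 5100, 4581, 2529, 336 and 2365 counts in TT plants, 5739, 611, 18199, 236 and 91717 in BT plants, and 7602, 68.7, 2912, 40179 and 3404 in BD plants. BGL2 (AT3G57260), the beta-1,3-glucanase PR2, had 2774, 10263, 14926, 2451 and 3935 counts in TT, 8223, 2625, 25128, 1734.99 and 134992 in BT, and 18989, 2867, 20902, 45594 and 4483 in BD plants. PR5 (AT1G75040), a thaumatin-like protein, had 3583, 3595, 7665, 1881 and 2365 counts in TT, 10630, 3343, 17045, 1674 and 93170 in BT, and 9480, 1486, 9264, 36316 and 2140 in BD plants. These were no rare transcripts: per length, PR1 averaged 756 TPM, BGL2 635 TPM and PR5 507 TPM. BT replicate 5, BD replicate 4 and BT replicate 3 were the highest plants, in that order, in all 3 genes.

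Wall-degrading enzymes other than BGL2 followed. CHI (AT2G43570), annotated as a chitinase, had 587, 627, 1271, 62.9 and 173 counts in TT, 1547, 319, 2538, 59.5 and 16197 in BT, and 2279, 49.6, 1716, 5512 and 152 in BD plants. AT4G16260, a glucanase-like glycosyl hydrolase, had 33.8, 50.9, 5.76, 2.13 and 44.0 in TT, 177, 56.2, 66.2, 13.7 and 274 in BT, and 102, 0, 3.29, 2061 and 4.996 in BD plants. BG3, a further beta-1,3-glucanase next to BGL2 on chromosome 3, was also in the block. The highest plant therefore differed between them, BT replicate 5 for CHI and BD replicate 4 for AT4G16260. The ATPase gene AT3G28510 had 36.4, 40.1, 45.1, 1.07 and 8.61 counts in TT, 19.0, 16.2, 205, 3.90 and 1472 in BT, and 15.6, 1.27, 84.5, 300 and 12.5 in BD plants. CSLG2 (AT4G24000), of the cellulose synthase-like family, had 72.9, 24.9, 7.68, 2.13 and 24.9 in TT, 76.1, 10.5, 74.6, 1.95 and 314 in BT, and 45.9, 5.09, 20.9, 1268 and 13.7 in BD plants. Without BD replicate 4 the pooled SD was 0.68 for AT4G16260 and 0.72 for CSLG2, and without BT replicate 5 it was 0.85 for AT3G28510.

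**Figure D3:**
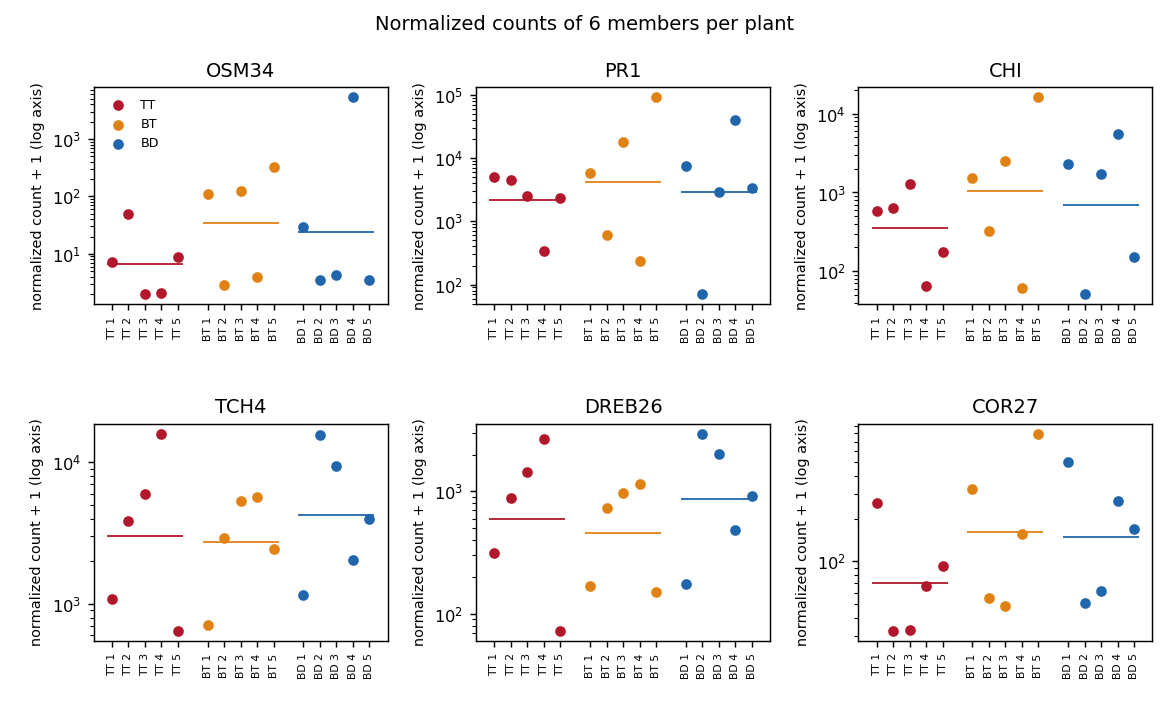
Normalized count plus 1 (log axis) of OSM34, PR1, CHI (block 1), TCH4, DREB26 (block 2) and COR27 (block 4) in each plant, with 1 point per plant and the mean of the logs of each group as a line. BD replicate 4 reaches 5343 counts for OSM34 and BT replicate 5 reaches 91717 for PR1, while TCH4 is highest in TT replicate 4 at 15962.

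Regulators and enzymes upstream of the PR genes moved with them. Of 24 salicylic acid genes above the count minimum, 14 were among the 200, 13 of them in block 1, and the median deviation of the 24 genes was 1.223 in BT replicate 5 and 0.84 in BD replicate 4. SARD1 and CBP60G, the transcription factors that switch on salicylic acid synthesis, reached 5239 and 2652 counts in BT replicate 5, where the median of the other BT plants was 897 and 414. NIMIN1, an NPR1-binding protein, had 1514 in BT replicate 5 and 754 in BD replicate 4, against 55.5 to 153 in TT plants. SAG13 (AT2G29350), an early marker of cell death, had 967, 603, 765, 92.8 and 262 counts in TT, 2121, 361, 2779, 94.7 and 7127 in BT, and 1386, 91.6, 1310, 8704 and 197 in BD plants. ALD1 and FMO1, which make pipecolic acid and hydroxylate it, had 447 and 344 counts in BT replicate 5 and 168 and 209 in BD replicate 4. FMO1 was as low as 0 in BD replicate 2. UGT76B1, which conjugates these signals with glucose, had 575 in BT replicate 5 and 344 in BD replicate 4. It had 9.76 to 233 in the other BT plants, 10.2 to 87.8 in the other BD plants and 0.956 to 111 in TT plants. The camalexin enzymes PAD3 and CYP71A13 had 1082 and 620 counts in BT replicate 5 and 1555 and 856 in BD replicate 4.

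Block 1 also held members of receptor and detoxification families. Families were counted by the wording of the product name. These were 5 of 28 receptor-like proteins above the count minimum, 3 of 24 cysteine-rich receptor-like kinases, 3 of 13 methionine sulfoxide reductases and 5 of 25 glutathione S-transferases. GSTL1, worded as a glutathione transferase of the lambda class, was also in block 1 and was missed by this match. GSTU3 (AT2G29470) was at most 7.65 counts in TT plants, 195.1, 1.91, 1.87, 0.976 and 74.6 in BT plants, and 4.097, 0, 0, 518 and 2.50 in BD plants. GSTF6 (AT1G02930) had 4240, 2706, 3053, 1238 and 2048 in TT, 9155, 2464, 9964, 1564 and 15218 in BT, and 6081, 999, 5122, 15462 and 2262 in BD plants. Both glutathione transferases were thus highest in BD replicate 4, with the low-count GSTU3 confined to few plants. Reads of GSTF6 and its neighbour GSTF7, of LTP3 and LTP4, of VSP1 and VSP2, and of MSRB7, MSRB8 and MSRB9 may be split uncertainly between near-identical copies.

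Block 1 also took in genes of other stress classes. BIP3 (AT1G09080), a chaperone of the endoplasmic reticulum, had 36.4, 123, 69.1, 21.3 and 36.3 counts in TT, 180, 62.9, 248, 38.1 and 2147 in BT, and 86.8, 12.7, 613, 854 and 23.7 in BD plants. ADH1 (AT1G77120), the alcohol dehydrogenase of low oxygen metabolism, had 575 in BT replicate 5 and 462 in BD replicate 4 and stayed between 29.2 and 76.5 in the other 13 plants. TAT3 (AT2G24850), a tyrosine aminotransferase induced by jasmonate, had 759, 660, 732, 56.5 and 125 in TT, 2686, 217, 2290, 54.6 and 5344 in BT, and 1004, 108, 832, 4551 and 76.2 in BD plants. PAP17 (AT3G17790), a purple acid phosphatase of phosphate starvation, had 2022 in BD replicate 4 and 153 to 428 in TT plants. Among BT plants it had 861 in replicate 5 and nearly as much, 811, in replicate 3. The abscisic acid genes HAI1, a protein phosphatase, and RD20, a caleosin, were highest in BT replicate 5 (586) and in BD replicate 4 (1915). The aspartic protease gene AT4G04460 was raised in a single plant, with 617 counts in BD replicate 4 and 18.25 to 45.9 in the other 14, and its pooled SD was 0.15 without that plant.

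Block 2 ran across the plants in another order. All 42 genes lay above their group mean in TT replicate 4, BD replicate 2 and BD replicate 3, and none did in TT replicate 5. The mean deviation of the block was 1.14 in TT replicate 4, 0.98 in BD replicate 2 and 0.67 in BD replicate 3, and it was −0.93 in TT replicate 5, −0.77 in BD replicate 1 and −0.63 in TT replicate 1. BT plants kept to between −0.45 and 0.43. The median SD of its genes was accordingly 0.83 in TT, 0.47 in BT and 0.81 in BD plants. The mean correlation between its genes was 0.82, and 0.86 without BT replicate 5 and BD replicate 4. For the 41 genes with more than 3 reads in every plant, the highest plant exceeded the lowest by a median of 16.5-fold (range 7.50 to 216).

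Of 33 touch and rapid stress genes above the count minimum, 9 were among the 200, all of them in block 2. TCH4 (AT5G57560), a xyloglucan endotransglucosylase that remodels cell walls after touch, had 1085, 3865, 5959, 15962 and 644 counts in TT, 708, 2927, 5296, 5721 and 2449 in BT, and 1153, 15530, 9369, 2032 and 3987 in BD plants. DREB26 (AT1G21910), an ERF transcription factor, had 310, 874, 1432, 2660 and 71.7 in TT, 168, 725, 966, 1138 and 149 in BT, and 175, 2967, 2014, 485 and 916 in BD plants. TCH2, a calmodulin-like protein, ran from 488 in TT replicate 5 to 4699 in TT replicate 4. ACS6, an ethylene synthesis enzyme that responds to touch, ran from 311 in TT replicate 5 to 2848 in BT replicate 3. BT replicate 4, the lowest plant of block 1, was above its group mean in 36 of the 42 genes of block 2.

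The largest SD in block 2 was that of PHI-1 (AT1G35140), a relative of the growth gene EXO. It had 24, 205, 385, 1109 and 6.69 counts in TT, 12.01, 147, 300, 228 and 29.2 in BT, and 15.6, 1447, 806, 134 and 194.9 in BD plants. JAZ7 (AT2G34600), a repressor of jasmonate signalling, had 38.2, 130, 74.9, 600 and 8.61 in TT, 76.1, 32.4, 125, 85.9 and 78.9 in BT, and 15.6, 1036, 443, 107 and 56.2 in BD plants. All 5 ERF and DREB factors found by product name among the 200 were in this block, of 39 above the count minimum. Growth and wall genes were present as well, with EXLA1 (AT3G45970), an expansin-like protein, at 2803 in TT replicate 4 and 215 in TT replicate 5, and HAT1 (AT4G17460), a homeodomain factor of the HD-ZIP class, at 937 and 154 in the same plants.

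Block 2 held 1 of the 18 sugar starvation list genes and 1 of the 19 nitrate list genes. DIN10 (AT5G20250), a raffinose synthase raised in darkness and sugar shortage, had 2520, 4791, 4793, 16708 and 1265 counts in TT, 4189, 5901, 3325, 6636 and 6244 in BT, and 3821, 13711, 10428, 1563 and 3928 in BD plants. The scaffold gene BT2 (AT3G48360, a BTB and TAZ domain protein, not a plant label), which is induced by nitrate and repressed by sugar, had 3284, 2661, 2738, 15460 and 309 in TT, 7324, 2639, 4050, 5667 and 6141 in BT, and 6107, 11158, 9979, 1419 and 3213 in BD plants. For both genes TT replicate 4 was highest, with BD replicates 2 and 3 next. Abscisic acid turnover and sensing also varied here: CYP707A3, which breaks the hormone down, ran from 55.5 in TT replicate 5 to 1057 in BD replicate 2, and its receptor PYL5 from 125 in TT replicate 5 to 1623 in TT replicate 4. WRKY18 was the single salicylic acid list gene of block 2, and its highest plant was BT replicate 5 at 3726.

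Block 4 held 6 genes, and its mean ran against that of block 2 (r of −0.75 over 15 plants). COR27 (AT5G42900), which acts in cold tolerance and in the evening part of the clock, had 259, 31.4, 31.7, 66.1 and 91.8 counts in TT, 324, 54.3, 47.6, 154 and 798 in BT, and 502, 49.6, 60.4, 267 and 167 in BD plants. Its partner AT4G33980 had 217, 37.9, 37.5, 56.5 and 77.5 in TT, 404, 69.6, 53.2, 155 and 710 in BT, and 569, 48.3, 81.2, 214 and 164 in BD plants. AT4G02720, annotated as a Ras-induced vulval development antagonist protein, had 332, 46.6, 104, 0 and 56.4 in TT, 171, 183, 8.40, 129 and 356 in BT, and 210, 21.6, 0, 253 and 21.2 in BD plants. Replicate 1 of TT and BD was the highest plant of its group in all 3 genes except AT4G02720 in BD, and BT replicate 5 was the highest BT plant in all 3. EARLI1 (AT4G12480), a lipid transfer-like protein, reached 1744 in BD replicate 1, where the other BD plants had 150 to 382.

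Some clock genes followed the order of plants in block 2 without being among the 200. None of the 27 circadian clock genes above the count minimum passed the SD threshold, FKF1 (AT1G68050) coming closest at 0.631. FKF1, a blue light receptor that peaks late in the day, had 1357, 369, 351, 208 and 769 counts in TT, 1680, 489, 319, 812 and 1348 in BT, and 1943, 330, 322, 1147 and 882 in BD plants. CCA1 (AT2G46830), a morning factor, had 259, 520, 632, 623 and 334 in TT, 179, 549, 575, 264 and 268 in BT, and 140, 608, 644, 251 and 214 in BD plants. Over the 15 plants the deviation of FKF1 had an r of −0.88 with the block 2 mean and 0.88 with the block 4 mean, and CCA1 had 0.84 and −0.80. The evening or afternoon genes GRP7, BBX8, ELF4 and TOC1 had r of −0.87, −0.87, −0.73 and −0.68 with block 2. Over all 27 clock genes, 10 had an r under −0.6 with the block 2 mean, 7 had one over 0.6, and 10 lay between, among them LHY at 0.50, PRR9 at 0.24, PRR7 at 0.19 and LUX at −0.21. LHY, a morning factor like CCA1, thus followed block 2 less closely. With block 1, FKF1 had an r of 0.33 and CCA1 −0.19. The block 2 mean had 1 sign in all 3 groups for 4 of the 5 replicate numbers, as low in replicate 1 (−0.63 in TT, −0.45 in BT and −0.77 in BD) and high in replicate 3 (0.30 in TT, 0.43 in BT and 0.67 in BD), with replicate 4 the exception. The block 4 mean did so for 3 of the 5 numbers, the block 3 mean for 2 and the block 1 mean for 1. What a replicate number marks is not given in the sources used here, and its part in these blocks was not tested. The harvest hour of single plants was not analysed here, and the part of harvest time in block 2 and block 4 was not tested.

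**Figure D4:**
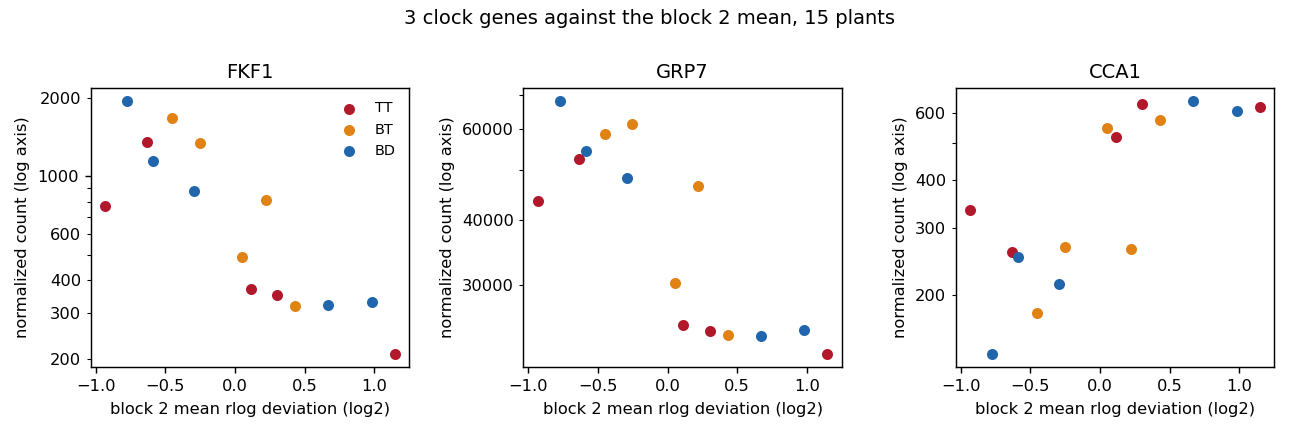
Normalized count (log axis) of the clock genes FKF1, GRP7 and CCA1, none of them among the 200, against the mean rlog deviation of block 2 (log2 units), 1 point per plant in the colour of its group. FKF1 and GRP7 fall to the right (r of −0.88 and −0.87) and CCA1 rises (r of 0.84), with TT, BT and BD plants mixed along the axis.

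Block 3 consisted of 6 genes, all on chromosome 5, of which 5 were undetected in some plants and AT5G59670 was detected in all 15. A rule asked for 3 reads or fewer in at least 1 plant and 100 reads or more in another. It also asked for a normalized count of at least 50 in every plant above 3 reads. Over all 16252 genes, 6 passed, and 5 of these were block 3 genes. AT5G28350 (chr5:10320114-10327374, TAIR10.1), annotated as a RIC1-like guanyl-nucleotide exchange factor, had 0, 292, 0, 236 and 0 counts in TT, 285, 249, 191, 225 and 279 in BT, and 451, 375, 0, 439 and 392 in BD plants. AT5G36930 (chr5:14567444-14573206), a disease resistance protein of the TIR-NBS-LRR class, had 0.889, 238, 0, 212 and 0 in TT, 297, 187, 267, 184 and 474 in BT, and 453, 328, 0, 470 and 274 in BD plants. Both were at or below 3 reads in the same plants, TT replicates 1, 3 and 5 and BD replicate 3. AT5G28919 (chr5:10940033-10941771), an uncharacterized gene between them, was at 0 in these plants and also in BT replicate 4, and had 122 and 234 in the other TT, 67.0, 200, 99.8 and 58.4 in the other BT, and 437, 382, 149 and 416 in the other BD plants.

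Farther along the chromosome another set of plants was at 0. AT5G56380 (chr5:22838633-22841117), an F-box protein, was at 0 in TT replicate 1, BT replicates 3 and 4 and BD replicates 3 and 4, and had 132, 132, 144 and 142 in the other TT, 122, 127 and 110 in the other BT, and 216, 214 and 230 in the other BD plants. AT5G66052 (chr5:26416126-26416924), uncharacterized, was at 0 in TT replicate 1, BT replicates 3 and 4 and BD replicate 3 and had 106 to 328 elsewhere. AT5G59670, a leucine-rich repeat kinase, was low but detected in the same 4 plants at 17.78, 57.8, 25.4 and 32.9, and had 283 to 1072 in the others.

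**Figure D5:**
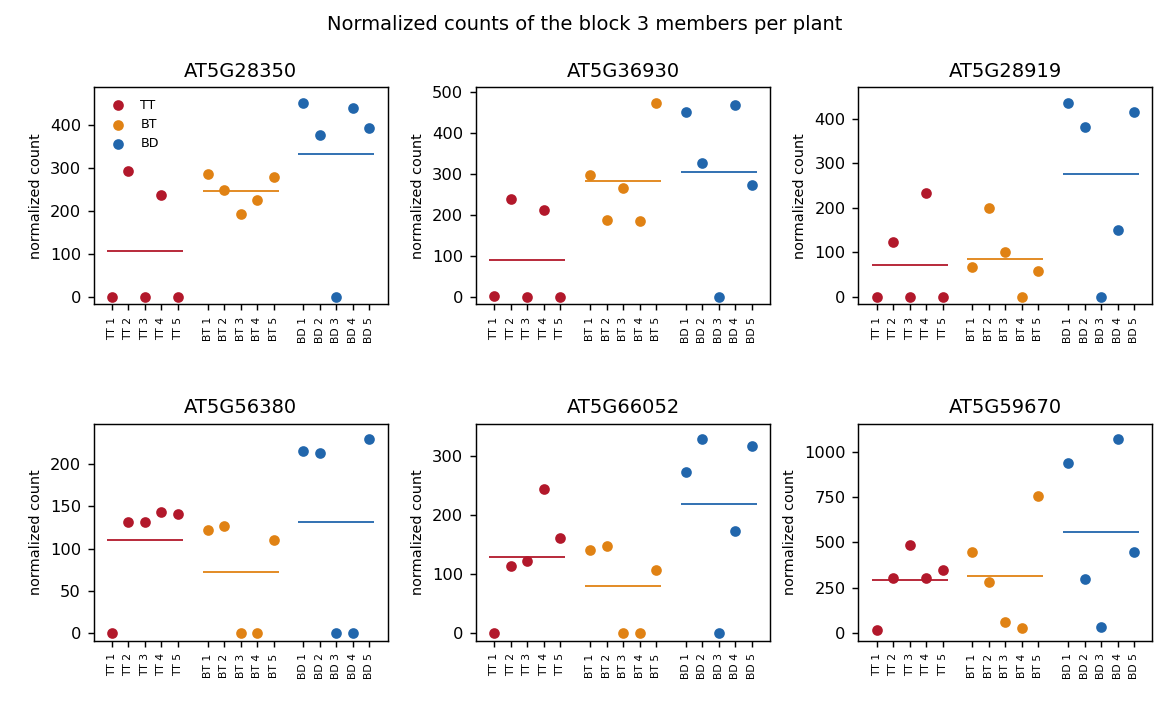
Normalized count (linear axis) of the 6 block 3 genes in each plant, with 1 point per plant and the group mean as a line. AT5G28350 and AT5G36930 sit at or near 0 in TT replicates 1, 3 and 5 and in BD replicate 3, and AT5G56380 and AT5G66052 at 0 in TT replicate 1, BT replicates 3 and 4 and BD replicate 3.

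Under a looser rule, 3 reads or fewer in 1 plant and 100 reads or more in another, 48 genes qualified and 41 of them were among the 200 (31 in block 1). This overlap follows from the choice of genes by spread. AT5G35450, a resistance gene of the CC-NBS-LRR class that lies on chromosome 5 between AT5G28919 and AT5G36930 and is not among the 200, was at 1.92 counts in TT replicate 3 and 3.29 in BD replicate 3, was also low at 3.56 in TT replicate 1 and 4.78 in TT replicate 5, and had 59.4 to 135 in the other plants. With 3 reads in libraries of this depth, absence of the transcript cannot be told apart from a level below detection, and allele differences in these genes were not analysed here.

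Of the 11 genes in smaller sets, LTP2, LTP3 and LTP4 encode lipid transfer proteins of the cuticle and of drought response, and AT4G22505 is annotated to the same wider superfamily. LTP4 (AT5G59310) had 1483, 22.7, 80.7, 14.9 and 45.9 counts in TT, 1371, 5.72, 565, 5.85 and 416 in BT, and 782, 406, 499, 323 and 58.7 in BD plants. LTP3 (AT5G59320), its neighbour, had 2193, 87.7, 378, 92.8 and 152 in TT, 1461, 66.7, 623, 46.8 and 711 in BT, and 840, 668, 787, 311 and 232 in BD plants. LTP2 (AT2G38530), on another chromosome, had 1581, 140, 660, 191 and 190 in TT, 838, 158, 257, 209 and 87.5 in BT, and 220, 289, 266, 340 and 164 in BD plants. TT replicate 1 was the highest plant of the study in all 3 genes.

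The vegetative storage proteins VSP1 and VSP2, acid phosphatase-like proteins induced by jasmonate, formed a pair. VSP2 (AT5G24770) had 268, 2007, 479, 1009 and 175 counts in TT, 388, 247, 767, 341 and 782 in BT, and 102, 772, 3555, 67.6 and 2810 in BD plants. Its highest plants were BD replicates 3 and 5, and BD replicate 4, high in defence genes, was its lowest. A further set of 4 was led by AT4G22495, with 724, 31.4, 175, 88.5 and 519 counts in TT, 277, 219, 132, 90.8 and 158 in BT, and 6.55, 120, 45.0, 836 and 250 in BD plants, and included the cutinase CDEF1. PS2 (AT1G73010), an inorganic pyrophosphatase of phosphate starvation, stood alone with 391 in BD replicate 4 and 8.78 to 33.7 in the other BD plants, 9.01 to 154 in BT plants and 10.6 to 49.1 in TT plants, and its pooled SD was 0.45 without BD replicate 4. AT5G42825 had 8.00, 0, 0, 248 and 0 in TT, 69.0, 14.3, 87.7, 231 and 3.24 in BT, and 172, 405, 0, 86.8 and 295 in BD plants.

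Across 25 gene lists (517 gene entries), 49 of the 200 genes fell in a list. Besides salicylic acid defence (14 of 24 above the count minimum) and touch (9 of 33), these were cold, drought and abscisic acid (7 of 29), jasmonate (5 of 24), detoxification (3 of 11), phosphate starvation (2 of 14), senescence (2 of 8), sugar starvation (2 of 18) and wax and lipid transfer (2 of 17). Hypoxia (1 of 7), endoplasmic reticulum stress (1 of 10) and nitrate (1 of 19) gave a gene each. No gene was taken from aliphatic glucosinolate synthesis (20 above the minimum), circadian clock (27), antenna and Rubisco (24), flavonoids (19), copper (19), heat shock (14), auxin and shade growth (13), iron (12), flowering (10), ethylene and defensin (2), pollen (2) or root (1). All 16252 genes gave 1.23%. As the 200 genes were selected on spread, these shares are descriptions. In BT replicate 5 the antenna and Rubisco list had a median deviation of −0.47 and in BD replicate 4 of −0.21, beside the 1.223 and 0.84 of the salicylic acid list.

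The 200 genes lay on all 5 chromosomes, with 58, 26, 30, 36 and 50 on chromosomes 1 to 5, which is 1.36%, 1.07%, 0.924%, 1.46% and 1.31% of the genes above the minimum there. The distal part of chromosome 1 held 15 of 764 (1.96%). Neighbours in the gene order accounted for 17 pairs, 13 of them within a block. EXT3 and AT1G21313, and AT4G22495 and AT4G22505, overlap on the chromosome, and since the library kit keeps no strand, their reads cannot be told apart.

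The rule did not use the differences between group means. The limma p-values below do depend on the spread within groups, by which the genes were chosen. In each comparison the median SE was 0.82 for the 200 genes and 0.16 for all 16252 above the count minimum. A small p was therefore harder to reach for the 200, and a low share passing cannot be read as a lack of difference. The comparisons were made with limma on log2(normalized count + 1) over all 21450 genes, with Benjamini-Yekutieli adjustment. For BT over BD, for TT over BT and for TT over BD, none of the 200 genes was called at an adjusted p under 0.05, and none of all genes (0% of 21450 in each comparison). At an unadjusted p under 0.05, 371, 2018 and 514 of all genes passed in these 3 comparisons. DESeq2 and edgeR, run on recovered reads of 14 plants, also called 0 genes after adjustment in each. The 3 comparisons share groups, so their values are not independent of each other.

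For BT over BD, 0 of the 200 genes had an unadjusted p under 0.05, where 1.13% of the 16252 genes above the count minimum did (0.381% higher and 0.745% lower). The median log2 difference of the 200 genes was 0.31, with 140 higher and 60 lower in BT plants, against −0.00 over all 16252. It was −0.11 without BT replicate 5, 0.83 without BD replicate 4 and 0.33 without both. It was 0.03 without BD replicate 2, 0.08 without BD replicate 5, 0.16 without BT replicate 3, 0.58 without BT replicate 2 and 0.76 without BT replicate 4, so its size rested on which plants were in the fit. The smallest p among the higher genes was that of AT2G38790 (log2 difference 2.75, SE 1.33, unadjusted p = 0.0552 by limma, adjusted p = 1). GSTF2 (AT4G02520), a glutathione transferase, had 9386, 3681, 4520, 2868 and 16187 counts in BT and 6444, 682, 2098, 11817 and 1495 in BD plants, a log2 difference of 1.095 (SE 0.66, unadjusted p = 0.116 by limma). Among the lower genes AT4G04460 had −0.99 (p = 0.151 by limma), and it rested on the single high BD plant. EXLA1 had −0.83 (p = 0.277 by limma).

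For TT over BT, 11 of the 200 genes had an unadjusted p under 0.05, all of them lower in TT plants, and 10.4% of the 16252 genes did (5.13% higher and 5.31% lower). The median log2 difference was −1.03, with 29 genes higher and 171 lower in TT plants, against 0.01 over all 16252. Without BT replicate 5 it was −0.51 and the count of genes was 3. Without BT replicate 4 the count was 49, without BT replicate 2 it was 26, without BD replicate 4 it was 24 and without TT replicate 5 it was 2. In the count tests on recovered reads the share was higher among the 200 than among all genes, with 76 of 200 (38.0%) against 11.5% of 21450 genes in edgeR, and 76 of 187 (40.6%) against 12.4% of 21387 genes in DESeq2. AT2G38790, an uncharacterized gene of block 4, had 0, 5.41, 17.3, 0 and 0 counts in TT, 112, 52.4, 188, 97.6 and 155 in BT, and 226, 0, 4.39, 217 and 3.75 in BD plants. TT and BT plants did not overlap in this gene, and its log2 difference was −5.43 (SE 1.33, unadjusted p = 0.000899, adjusted p = 1 by limma). With TT plants at or near 0, the size of this difference depends on the 1 count added before the log. AT5G42830, an acyltransferase-like gene of block 1, had 32.0, 89.9, 17.3, 36.3 and 12.4 counts in TT and 97.1, 51.5, 286, 38.1 and 788 in BT plants, a log2 difference of −2.14 (SE 0.80, unadjusted p = 0.0172 by limma). The other 9 were MSRB7, MSRB9, AT5G28350, AT5G36930, AT5G22545, NIMIN1, NAC042, TRX5 and GRXS13. Among the genes higher in TT plants, LTP2 had 0.62 (p = 0.342) and HAT1 0.73 (p = 0.355) by limma.

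For TT over BD, 2 of the 200 genes had an unadjusted p under 0.05, both lower in TT plants, and 1.87% of the 16252 genes did (0.751% higher and 1.12% lower). The median log2 difference was −0.61, with 18 genes higher and 182 lower in TT plants, against 0.00 over all 16252. Without BD replicate 4 it was −0.24 and no gene of the 200 had an unadjusted p under 0.05, as was also so without TT replicate 5. Without BD replicate 2 the count was 9, without TT replicate 4 it was 6, without BD replicate 3 it was 5 and without TT replicate 2 it was 4. Without BD replicate 2 the median was −0.95. In the count tests 21 of 200 (10.5%) were under 0.05 in edgeR, against 2.72% of all genes, and 16 of 187 (8.56%) in DESeq2, against 2.64%. AT5G42825 had a log2 difference of −3.93 (SE 1.76, unadjusted p = 0.0407 by limma), with TT and BD plants overlapping. AMY1 (AT4G25000), an alpha-amylase, had 36.4, 59.6, 132, 32.0 and 66.0 counts in TT and 452, 53.4, 183, 969 and 94.9 in BD plants, a log2 difference of −1.86 (SE 0.87, unadjusted p = 0.0493 by limma). AT4G22505 had 0.98 (p = 0.382) and AT4G22495 0.89 (p = 0.403) by limma, the smallest p among genes higher in TT plants.

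By block, the median log2 difference of block 1 was 0.52 for BT over BD (120 of 135 higher), −1.21 for TT over BT (132 lower) and −0.72 for TT over BD (130 lower). That of block 2 was −0.31 for BT over BD, −0.05 for TT over BT and −0.39 for TT over BD. Genes of a block move together between plants, so the number of genes on a side counts the same few plants many times. In each comparison the median SE of single genes was 0.85 in block 1 and 0.71 in block 2.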

How the data were processed

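RNA from 60 samples, 4 technical replicates of each of 15 plants, was sequenced. Per the labels and the study's methods, the authors trimmed single reads with Trimmomatic 0.38, aligned them with STAR 2.6.0c, allowing multiple placements, to TAIR10, quantified genes with Salmon 0.11.3 and normalized with DESeq2 1.22. Reads that fit several near-identical genes are therefore shared out by model, and the kit keeps no strand. The authors deposited 3 tables: normalized counts (a signal, gene counts divided by a size factor per plant), log2 values after the regularized log (rlog), and TPM. TPM was used for levels between genes only.

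The members and gene lists were chosen with earlier results of these data known. Deviations were rlog values minus the group mean, and blocks came from average linkage on 1 − r with the tree cut at 0.5. Groups were compared with limma 3.58.1 (trend, 2-sided) on log2(normalized count + 1) over 21450 genes, without a filter, with Benjamini-Yekutieli adjustment at 0.05. A fold change on this scale understates that of low genes. Genes named were the 10 with the largest SD, the 3 with the largest SD in each block of at least 5, the 2 with the largest SD in each list, the 2 on each side of the threshold, and per pair of groups the 2 higher and 2 lower with the smallest p. Others were added as examples after their values were seen. edgeR 4.0.16 and DESeq2 1.42.0 were run on whole reads recovered from the deposited normalized counts (100% of values within 0.001 of a whole read) in 14 plants. BT replicate 1 was left out there because its step is so near 1 (size factor 0.999) that recovered reads and deposited values could not be told apart by the test used. Its values were whole all the same, and its reads entered the depth and the rule on 3 reads. Replicate numbers belong to different plants. Whether plants of a group came from separate sowings is not given in the sources used here, and p-values measure the spread between plants. The fit and the selection were tested on simulated data with known changes. Motifs and genomic positions came from RefSeq TAIR10.1, in which 21283 gene identifiers were matched. Other pseudocounts, filters, units, adjustments and clusterings, a replicate block, and leaving out each plant were tried. One stretch of sequence upstream of a gene is not reported here.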

Additional observations from a re-analysis of the deposited data

Results flagged for a closer look

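In 165 groups of 5 plants (55 values in 3 groups each), the gap of the highest or lowest plant to its neighbour exceeded 0.71 of the range of its group in 18 cases, the critical value of Dixon's test. Chance gives about 5% of groups, but nearly all these values were chosen for a large SD within groups, so the number of cases cannot be read against that rate. Values of genes were taken as log2(normalized count + 1), and the number after each case is the gap as a share of the range. Genes of a block move together, so cases in the same plant are not independent.

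BD replicate 4 was far above the other BD plants in KTI1 (0.720), SAG29 (0.836), DIN2 (0.853), ADH1 (0.887), GSTU3 (0.739) and AT4G04460 (0.829), and in its share of the squared deviations of the 200 genes (0.787). BT replicate 5 was far above the other BT plants in ADH1 (0.831), and TT replicate 2 far above the other TT plants in DIN2 (0.973).

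Low plants were found in other genes. TT replicate 4 was far below the other TT plants in PR1 (0.717), and TT replicate 3 in ABCG40 (0.7998), a gene just outside the set whose TT plants spanned only 47.1 to 57.8 counts. In block 3, TT replicate 1 was far below in AT5G59670 (0.859) and AT5G56380 (0.982), BT replicate 4 in AT5G28919 (0.770), and BD replicate 3 in AT5G28919 (0.824), in AT5G42825 of chromosome 5 (0.745) and in the block 3 mean (0.761). BT replicate 3 was far below the other BT plants in AT4G02720 (0.722).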

How the results depend on the processing

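After adjustment 0 genes were called in every comparison under every alternative. Of the 200 genes, those kept by the same rule numbered 110 with the median absolute deviation and 124 with a mean count of at least 200, 156 on log2(normalized count + 1), 163 to 196 without 1 plant (lowest without BT replicate 5), and 138 without BT replicate 5 and BD replicate 4 together, an alternative chosen after seeing the data. The largest block had 57 genes with complete linkage, all of them from the 135, and 129 to 145 otherwise. The pooled SD moved by over 1.5 times without 1 plant for 11 of 50 named genes, 10 without BD replicate 4 and 1 without BT replicate 5. It also moved for 47 of 50 on log2(normalized count + 1), where rlog shrinkage is absent.

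Of the 200 genes, those with an unadjusted p under 0.05 for BT over BD numbered 0 in the main test, 0 to 12 without 1 plant (12 without BD replicate 4), 4 without both plants, 4 with edgeR and 1 with DESeq2. For TT over BT they numbered 11, then 6 in limma without trend, 27 with only these groups in the fit, 2 to 49 without 1 plant, 4 without both plants, and 76 each with edgeR (38.0% of the 200, against 11.5% of all genes) and DESeq2 (40.6% of 187, against 12.4%). For TT over BD they numbered 2, then 1 with a pseudocount of 10, 1 with a mean of at least 10, 4 on log2(TPM + 1), 4 on rlog values, 0 without trend, 0 to 9 without 1 plant, 0 without both plants, 21 with edgeR and 16 with DESeq2. DESeq2 tested 187 of the 200, and the count tests lacked BT replicate 1. The cause of these differences was not tested.

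With the replicate number as a block, the counts were 0, 10 and 5 in these comparisons. Plants of the same number correlated at a mean of 0.17 (TT and BT), 0.06 (TT and BD) and 0.06 (BT and BD), with negative values in each. These values are over the 16252 genes above the count minimum. Over the same genes, plants of unlike numbers correlated at a mean of −0.04, −0.02 and −0.01. Over the 200 genes, plants of the same number correlated at 0.41, −0.04 and 0.10. Not every pair was over 0.1, so the numbers were not used as pairs. The best match of a plant in another group had its own number in 13 of 30 cases. In each case the other group offered 5 plants, of which only the same-numbered plant counted. Whether this exceeds a pick at random was not tested. Deviations with the replicate block kept 166 of the 200 genes, in blocks of which the first had 145 and the second 44.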
